A study of Mus musculus with 9 samples.

Results

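The 10 genes described here encode the chaperones that fold proteins inside mitochondria, the proteases that clear them, and transcription factors that respond when this balance is disturbed. The chaperones were *Hspd1*, *Hspe1*, *Hspa9* and *Trap1*, the proteases *Lonp1*, *Clpp* and *Clpx*, and the transcription factors *Atf4*, *Atf5* and *Ddit3*. They were taken by name, as the genes printed on the array under these symbols, and the rule used no measured value, although earlier results of these data were known when the genes were chosen. All 10 were on the array, with 13 of its 39429 probes and among 31040 gene names. All 13 probes passed the filter on low signal, as did 21862 gene names in all.

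Transcripts were measured in whole hippocampi of male mice aged 9 months, with 3 mice per genotype and 1 single-dye Agilent array for each. In IF1-KO mice, Cre recombinase driven by the *Camk2a* promoter removed exon 3 of *Atpif1* (*Atp5if1*), the gene of the ATP synthase inhibitor IF1, mainly in excitatory neurons of the forebrain. In IF1-TG mice, human IF1 was expressed from a tetracycline-responsive promoter under a *Camk2a*-driven transactivator. The control mice (CRL) are given by the labels only as controls, and all 3 groups are labelled as C57BL/6J. Per the study's methods, the floxed allele came from C57BL/6NTac stock and the overexpression lines from stock with CBA ancestry, and strain differences carried along with the constructs cannot be told apart from genotype. Since the tissue also holds glia and other neurons in which neither construct is driven, and was measured in bulk, fewer cells of a type and less RNA per cell cannot be told apart.

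*Atpif1* was measured first as a check of the labels. Its probe is annotated to the mouse transcript, and whether it reads the human IF1 of the IF1-TG mice was not tested. The check therefore bears on the IF1-KO labels alone. Every level here is the log2 signal over the 75th percentile of its own array. For *Atpif1* it was 5.20 in IF1-KO replicate 2 and 5.53 in IF1-KO replicate 3. The array labelled IF1-KO replicate 1 had 6.43, within the range of the other genotypes, which ran from 6.19 to 6.51. That array goes against its label for *Atpif1*, so the range of the IF1-KO differences of the 10 genes is also given without it, while the list medians below include it. The share of probes well above background was 66.7% to 69.6% on the IF1-TG arrays and 71.1% to 74.8% on the other arrays. The markers of other cell types and regions, all well above background on 9 of 9 arrays, are given as summed levels per list. Those of 8 neuron markers (7.13 to 7.52) and 6 astrocyte markers (4.63 to 4.90) overlapped between all genotypes. Those of 8 microglia markers were 4.71 to 4.87 in IF1-KO, below all CRL (4.93 to 5.00) and all IF1-TG mice (4.99 to 5.13). By gene, the microglia median was -0.06 for IF1-KO against CRL, with 3 markers higher and 5 lower. For IF1-TG against IF1-KO it was 0.12, with 6 higher and 2 lower, and 0 were called in either. Those of 8 oligodendrocyte markers were 6.52 to 7.108 in IF1-KO, 6.99 to 7.34 in CRL and 7.109 to 7.42 in IF1-TG mice, with medians of 0.26 for IF1-TG against IF1-KO and -0.27 for IF1-KO against CRL. Those of 6 choroid plexus markers stood apart on 1 array of each genotype, at 7.97 on IF1-TG replicate 1, 7.58 on CRL replicate 2 and 7.14 on IF1-KO replicate 3, against 3.51 to 4.71 on the rest. Their medians were 0.72, 0.39 and -0.49 for IF1-TG against IF1-KO, IF1-TG against CRL and IF1-KO against CRL. The first of these arrays is also the lowest for *Clpx*, *Trap1* and *Hspe1* (brightest probe). The second is the lowest for *Lonp1* and the highest for *Atf4* and *Ddit3*, and the third the lowest for *Clpp* and the highest for *Hspd1*. All 7 striatum markers had negative differences from CRL mice (medians of -0.39 for IF1-TG and -0.41 for IF1-KO, 1 called in each), with levels of 3.70 to 4.49 in CRL, 3.56 to 3.71 in IF1-KO and 3.31 to 3.86 in IF1-TG mice. The 5 thalamus markers were at 2.08, 3.12 and 1.60 in IF1-TG replicates 1 to 3 and at 1.55 to 2.01 on the other arrays, with medians of 0.60 against IF1-KO (0 called) and 0.30 against CRL (1 called higher). All 12 immediate early genes had negative differences for IF1-TG against IF1-KO (median -0.53) and CRL mice (median -0.51), with 0 at an unadjusted *P* value below 0.05 in limma, and levels of 4.43 to 5.62 in IF1-TG, 4.78 to 6.06 in IF1-KO and 4.70 to 6.20 in CRL mice. The part of these lists in the results was not tested.

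Most mitochondrial proteins are made in the cytosol and threaded into the matrix unfolded. Mortalin, encoded by *Hspa9*, pulls them in, and the Hsp60 chamber with its Hsp10 lid, encoded by *Hspd1* and *Hspe1*, helps them to fold. Trap1 is the mitochondrial member of the Hsp90 family. Lon, encoded by *Lonp1*, degrades damaged matrix proteins, and ClpXP does so with ClpX as the unfolding ATPase and ClpP as the proteolytic chamber. In mammalian cells mitochondrial stress is relayed largely through the integrated stress response, which raises translation of ATF4 and ATF5, while *Ddit3* encodes CHOP, a partner and target of ATF4. Because ATF4 and ATF5 are controlled to a large part at translation, their transcript levels report only a share of that control.

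The genes of the Hsp60 chamber and its lid lie head to head and share 1 promoter segment, which is shown because the pair is compared across mice below. The segment lies between the start of *Hspe1* and the *Hspd1* start upstream of it in RefSeq, at chr1:55087933-55088147 of GRCm38.p6. A second RefSeq start of *Hspd1* lies on the other side of the *Hspe1* start, so the genes overlap there. The window of that start holds 0 copies of the letters marked below. It is written on the *Hspe1* strand, and the capitals mark the letters GAANNTTC, the inverted repeat of a heat shock element, which reads the same on both strands.
Hspd1 and Hspe1: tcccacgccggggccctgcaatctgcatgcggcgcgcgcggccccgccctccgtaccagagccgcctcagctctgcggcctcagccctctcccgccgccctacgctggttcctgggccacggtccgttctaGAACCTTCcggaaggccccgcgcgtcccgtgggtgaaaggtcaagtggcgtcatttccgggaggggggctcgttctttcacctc
The match begins 84 bases before the start of *Hspe1*. Of 32851 mouse promoter windows of 300 bases in RefSeq, 7.86% hold these letters. Of the 10 genes, 9 have a window there, and only *Hspd1* and *Hspe1* hold the letters, through this same copy. The letters TGATGNAA, searched on both strands as the composite element bound by CHOP or ATF4 with C/EBP factors, stood in 3.97% of all windows and in 0 of those of the 9 genes. These matches are a description of the windows and show no binding.

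The comparison of IF1-TG with IF1-KO mice asked whether the dose of IF1 went along with the transcripts of these genes. A gene counted as differentially expressed when its brightest probe differed by at least 1.5-fold with an unadjusted *P* value below 0.05 in limma. These thresholds are those of the study's methods. By this rule 3.67% of all 21862 genes differed for IF1-TG against IF1-KO, 4.3% for IF1-TG against CRL, and 1.02% for IF1-KO against CRL. Of the 10 genes, 0 differed for IF1-TG against IF1-KO, 1 (*Clpx*, lower in IF1-TG) for IF1-TG against CRL, and 0 for IF1-KO against CRL. After Benjamini-Hochberg adjustment over all probes in limma, 0 of the 10 passed 0.05 in any comparison, nor did any gene of the whole array by its brightest probe. At an unadjusted *P* value below 0.05 alone, the counts for the 10 genes were again 0, 1 and 0, beside 6.86%, 8.11% and 2.58% of all genes. By the moderated *F* test over the 3 genotypes, 0 of the 10 had an unadjusted *P* value below 0.05, against 5.7% of all genes.

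**Figure D1:**
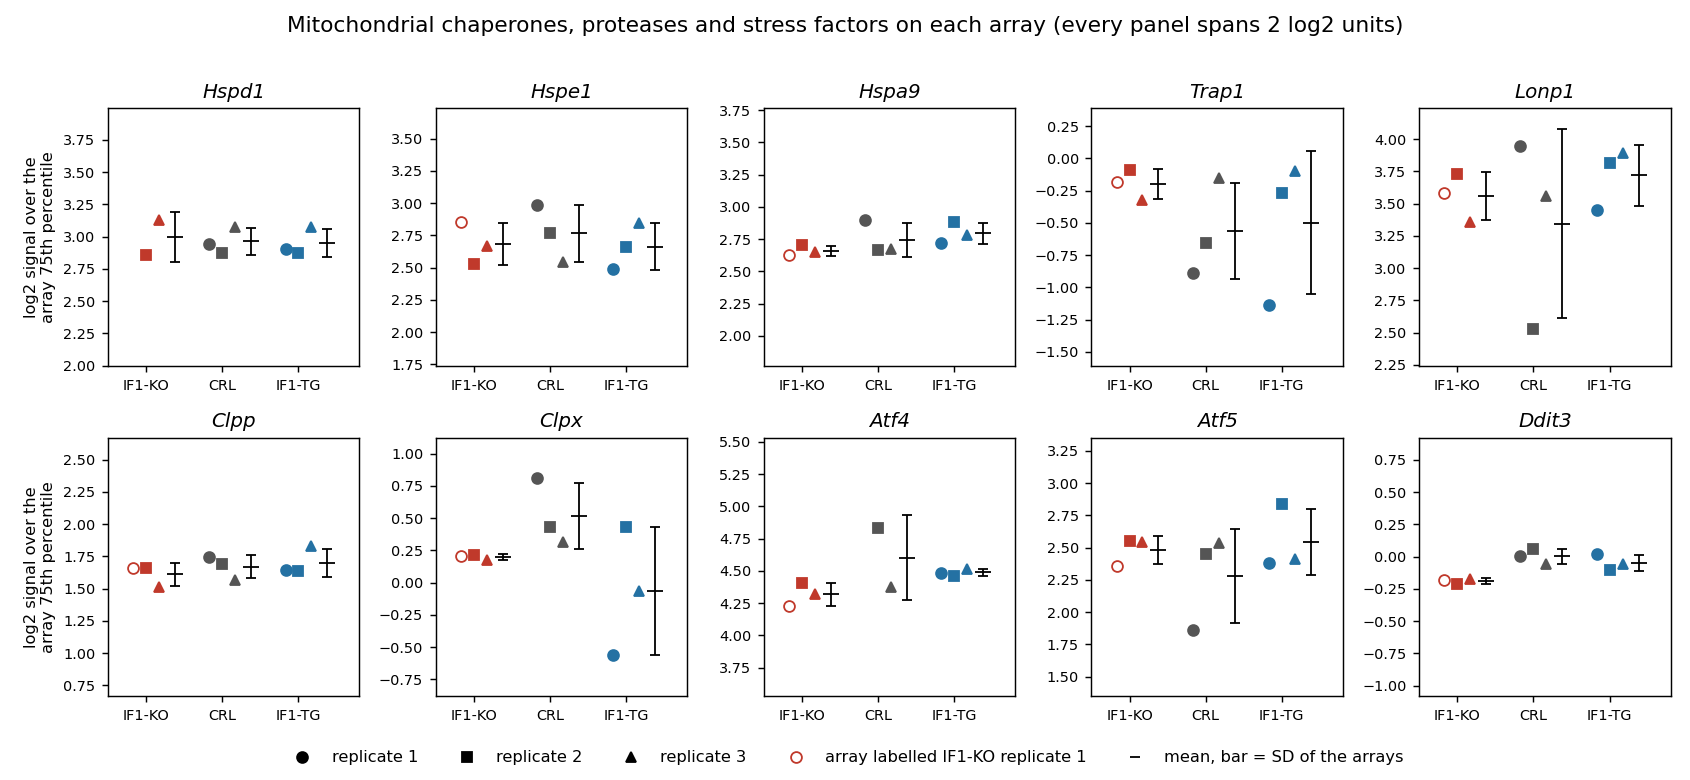
Log2 signal of the brightest probe of each gene over its array's 75th percentile (vertical axis, each panel spanning 2 log2 units around its own midpoint) for 3 IF1-KO, 3 CRL and 3 IF1-TG mice. Points are arrays, the open circle is the array labelled IF1-KO replicate 1, bars give the mean and SD, and the spot of *Hspd1* on that array and of *Atf4* on CRL replicate 1 were marked as outliers and left out. The genotypes overlap in most panels, *Lonp1* is low on CRL replicate 2 alone, and *Clpx* ranges from -0.56 to 0.43 among the IF1-TG mice.

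The chaperone *Hspd1* was level across the genotypes. Its log2 signal was 2.86 and 3.13 in IF1-KO replicates 2 and 3, 2.94, 2.87 and 3.08 in the CRL mice, and 2.91, 2.87 and 3.07 in the IF1-TG mice. The spot on the array labelled IF1-KO replicate 1 was marked as an outlier and dropped from the fit. The 3 genotypes overlapped fully, and the differences ranged from -0.05 (IF1-TG versus IF1-KO, standard error 0.15) to 0.03 (IF1-KO versus CRL, standard error 0.15). With the marked spot kept at its 2.49, the difference between IF1-KO and CRL was -0.14 (unadjusted *P* = 0.441 in limma).

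*Hspe1*, the lid of the Hsp60 chamber, was measured by 3 probes that did not behave alike. On the brightest probe the log2 signal was 2.86, 2.53 and 2.67 in the IF1-KO, 2.98, 2.77 and 2.54 in the CRL, and 2.49, 2.66 and 2.85 in the IF1-TG mice. No genotype stood apart, and the differences were between -0.10 and -0.02 with a standard error of 0.16. The second probe shares a stretch of 57 bases with the brightest one, with 1 difference, so the pair are not independent measures, and its differences lay between -0.07 and 0.06. The correlation between these probes over the 9 arrays was 0.82.

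The remaining *Hspe1* probe was dim, with 12.5% of kept probes dimmer, yet well above background on all 9 arrays. Its signal was -4.71, -4.97 and -5.11 in the IF1-KO, -5.89, -6.30 and -5.26 in the CRL, and -5.36, -5.24 and -4.85 in the IF1-TG mice. All IF1-KO arrays lay above all CRL arrays, whereas 1 IF1-TG array lay below the highest CRL array. The probe was higher in IF1-KO than in CRL mice by 0.88 (standard error 0.26, 1.84-fold, unadjusted *P* = 0.00919, adjusted *P* = 1.00 in limma). It was higher in IF1-TG than in CRL mice by 0.67 (unadjusted *P* = 0.0334, adjusted *P* = 0.560 in limma). The first of these was 0.77 with the array labelled IF1-KO replicate 1 left out (unadjusted *P* = 0.0345). Under normexp correction followed by quantile normalization they were 0.33 and 0.26, both under 1.5-fold. The second was 0.42 (unadjusted *P* = 0.121) when CRL replicate 2 was dropped and 0.52 when IF1-TG replicate 3 was. It also missed the *P* threshold in the fit of these 2 genotypes alone (0.67), and when CRL replicate 1 (0.63) or IF1-TG replicate 2 (0.71) was dropped. Counting a gene when any of its probes passed, 2 of the 10 genes were called for IF1-TG against CRL and 1 for IF1-KO against CRL through this probe, beside 5.59% and 1.34% of all genes. For IF1-TG against IF1-KO 0 were, beside 4.7%.

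The deposited annotation places the dim probe at chr1:28995108-28995167 of mm9 and the others on different chromosomes. That position is on the chromosome of *Hspe1* but not at the gene itself, whose promoter segment printed above begins at 55087933 in the other build. Its sequence is shown because the count of *Hspe1* calls turns on it.
Hspe1 dim probe: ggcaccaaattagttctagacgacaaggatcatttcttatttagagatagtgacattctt
RefSeq names 7 pseudogenes after *Hspe1*, on 5 chromosomes, and 23 after *Hspd1*, on 14 chromosomes. The probe of *Hspd1* is placed on chromosome 12, although the gene is on chromosome 1. Which copies of these families each probe hybridizes to was not tested, so the levels of *Hspd1* and *Hspe1* are uncertain in this respect.

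**Figure D2:**
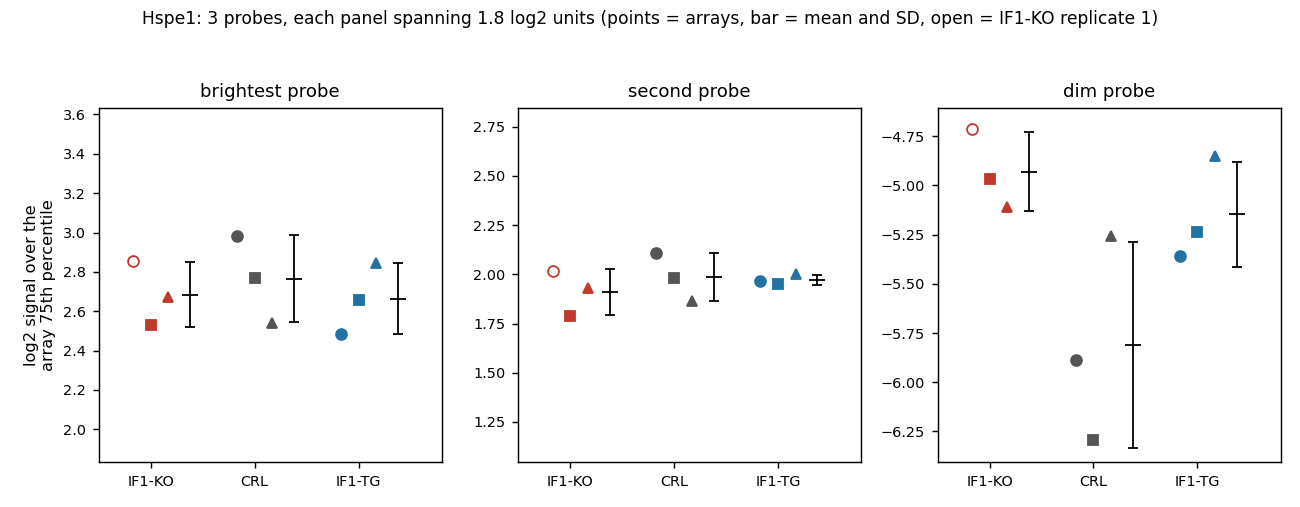
Log2 signal over the array's 75th percentile (vertical axis, each panel spanning 1.8 log2 units) of the 3 probes of *Hspe1* by genotype, with points for arrays and bars for the mean and SD. The brightest and second probes overlap between genotypes, while on the dim probe the IF1-KO arrays (-5.11 to -4.71) all lie above the CRL arrays (-6.30 to -5.26).

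*Hspa9*, the import motor, varied least among the chaperones. Its signal was 2.63, 2.70 and 2.65 in the IF1-KO, 2.90, 2.67 and 2.67 in the CRL, and 2.72, 2.88 and 2.78 in the IF1-TG mice. Every IF1-TG array lay above every IF1-KO array, by 0.13 on average (95% interval -0.12 to 0.39, unadjusted *P* = 0.261 in limma). Such a separation without overlap was found for 3 of the 10 genes (*Hspa9*, *Atf4* and *Ddit3*) in this comparison and for 13.3% of all genes, and none of the 3 differences reached 1.5-fold. It was found for 0 of the 10 in IF1-TG against CRL mice, beside 12% of all genes.

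*Trap1* was the least certain chaperone. Its signal was -0.18, -0.09 and -0.32 in the IF1-KO, -0.89, -0.65 and -0.15 in the CRL, and -1.13, -0.27 and -0.10 in the IF1-TG mice. The 3 IF1-KO mice were alike, while 2 CRL mice and IF1-TG replicate 1 were low. The difference between IF1-KO and CRL was 0.37 (95% interval -0.28 to 1.02, unadjusted *P* = 0.233 in limma). Within slide 2 this difference was 0.59 and within slide 3 it was -0.06. Leaving out IF1-TG replicate 1 moved the difference between IF1-TG and IF1-KO from -0.30 to 0.01.

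Of the proteases, *Lonp1* showed the widest spread. Its signal was 3.58, 3.73 and 3.36 in the IF1-KO, 3.95, 2.53 and 3.56 in the CRL, and 3.45, 3.82 and 3.89 in the IF1-TG mice. A single mouse, CRL replicate 2, lay below the rest, which ran from 3.36 to 3.95. The difference between IF1-TG and CRL was 0.37 (95% interval -0.37 to 1.12, unadjusted *P* = 0.284 in limma), and without CRL replicate 2 it was -0.03. Between IF1-KO and CRL it went from 0.21 to -0.20 without that mouse.

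*Clpp*, the proteolytic chamber, was nearly constant. Its signal was 1.66, 1.66 and 1.51 in the IF1-KO, 1.74, 1.69 and 1.57 in the CRL, and 1.64, 1.63 and 1.83 in the IF1-TG mice. The genotypes overlapped, and the 95% intervals of all 3 differences lay between -0.32 and 0.35.

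*Clpx*, the ATPase that feeds ClpP, was lower in IF1-TG than in CRL mice. Its signal was 0.21, 0.21 and 0.17 in the IF1-KO, 0.81, 0.43 and 0.32 in the CRL, and -0.56, 0.43 and -0.07 in the IF1-TG mice. The 3 IF1-KO mice lay below all CRL mice, while IF1-TG replicate 2 was as high as CRL replicate 2, so that the IF1-TG and CRL arrays overlapped. The difference between IF1-TG and CRL was -0.59 (standard error 0.24, 95% interval -1.13 to -0.04, just 1.5-fold), with an unadjusted *P* value of 0.0392 and an adjusted *P* value of 0.568 in limma. Between IF1-KO and CRL it was -0.32 (unadjusted *P* = 0.218), and between IF1-TG and IF1-KO -0.27 (unadjusted *P* = 0.300). The last of these became -0.017 when IF1-TG replicate 1 was dropped, and -0.51 (unadjusted *P* = 0.0350 in limma) when IF1-TG replicate 2 was.

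The *Clpx* call lay on the fold threshold and was lost under 12 of 20 alternative settings, among which the difference ranged from -0.83 to -0.34. It was lost when any 1 of 7 arrays was left out (all but CRL replicate 3 and IF1-TG replicate 2). Of these, the difference stayed at -0.59 without any 1 IF1-KO replicate or IF1-TG replicate 3. It was -0.63 without CRL replicate 2, -0.44 without CRL replicate 1 and -0.34 without IF1-TG replicate 1. The call was kept with slide as a random block (-0.59, unadjusted *P* = 0.0439 in limma) and lost with slide as a fixed block (-0.64). Slide 1 holds only IF1-TG replicates 1 and 2, and slide 3 no IF1-TG array. With the fixed block, IF1-TG differences therefore rest on IF1-TG replicate 3 alone. Within slide 2, the single slide with both genotypes, IF1-TG replicate 3 lay 0.69 below the mean of the CRL mice. The probe is on chromosome 9 of mm9 from 65177803 to 65177862. A segment from 65 to 70 Mb, with *Clpx* near its lower edge, was set with earlier results of these data known and is described without a test. In it 52 genes were measured, of which 5 were called lower (*Clpx* among them) and 5 higher in IF1-TG than in CRL mice, which is 19.2% beside 4.3% of all genes. For IF1-TG against IF1-KO 2 were called higher and 1 lower (5.77%, beside 3.67% of all genes), and between IF1-KO and CRL mice 0 were called.

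**Figure D3:**
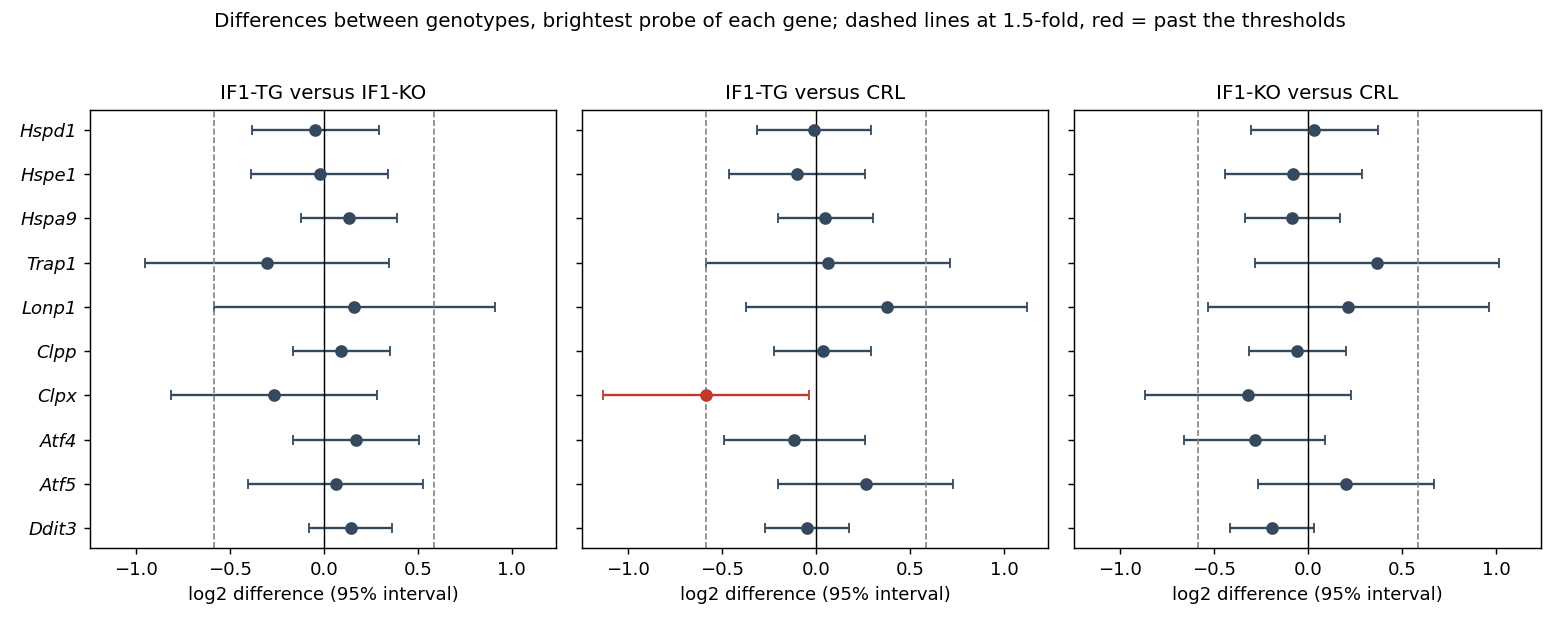
Log2 differences (horizontal axis) between the 3 pairs of genotypes for the brightest probe of each gene, with 95% intervals from the limma fit of 9 arrays and dashed lines at 1.5-fold. *Clpx* in IF1-TG versus CRL mice, at -0.59 and marked red, is the single point past the thresholds, and the intervals of *Trap1*, *Lonp1* and *Clpx* are the widest.

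*Atf4*, the main effector of the integrated stress response, had a lower signal on every IF1-KO array than on every IF1-TG array by its brightest probe, but not by its second probe. Its signal was 4.23, 4.41 and 4.32 in the IF1-KO mice, 4.83 and 4.37 in CRL replicates 2 and 3, and 4.49, 4.46 and 4.52 in the IF1-TG mice. The spot on CRL replicate 1 was marked as an outlier and dropped from the fit. The difference between IF1-TG and IF1-KO was 0.17 (95% interval -0.17 to 0.50, unadjusted *P* = 0.274 in limma). On the dimmer second probe it was -0.013 (unadjusted *P* = 0.948), and the genotypes overlapped. The difference between IF1-KO and CRL by the brightest probe was -0.28 (unadjusted *P* = 0.117) and rests on 2 CRL mice. Leaving out CRL replicate 2 gave -0.054, leaving out CRL replicate 3 gave -0.52, and dropping the array labelled IF1-KO replicate 1 gave -0.24. With the marked spot kept at its 5.01, this difference was -0.42 (unadjusted *P* = 0.0319 in limma), still under 1.5-fold. The second probe gave 0.20 for the same comparison (unadjusted *P* = 0.349), so the probes differed in direction.

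*Atf5*, a second transcription factor tied to mitochondrial protein stress, had a signal of 2.35, 2.55 and 2.54 in the IF1-KO, 1.86, 2.45 and 2.53 in the CRL, and 2.38, 2.84 and 2.41 in the IF1-TG mice. CRL replicate 1 was lowest and IF1-TG replicate 2 highest, and the genotypes overlapped. The difference between IF1-TG and CRL was 0.26 (95% interval -0.20 to 0.73, unadjusted *P* = 0.233 in limma). Without CRL replicate 1 it was 0.053, and over all arrays left out in turn it ranged up to 0.39.

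*Ddit3*, which encodes CHOP, was the tightest of the 10. Its signal was -0.18, -0.21 and -0.17 in the IF1-KO, 0.00, 0.05 and -0.06 in the CRL, and 0.02, -0.10 and -0.06 in the IF1-TG mice. The SD within genotypes was 0.05, lower than for all but 0.654% of genes. All IF1-KO arrays lay below all CRL and all IF1-TG arrays. Against CRL, the IF1-KO difference was -0.19 (unadjusted *P* = 0.0845 in limma, standard error 0.10). With the array labelled IF1-KO replicate 1 left out, this became -0.20 (unadjusted *P* = 0.139). The IF1-KO and CRL arrays did not overlap for 2 of the 10 genes, *Ddit3* and *Clpx*, and for 7.99% of all genes.

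The intervals show what size of change these arrays allow. The whole 95% interval lay within 1.5-fold in either direction for 7 of the 10 genes in IF1-TG against IF1-KO, for 6 in IF1-TG against CRL and for 5 in IF1-KO against CRL. *Hspd1*, *Hspe1* (brightest probe), *Hspa9*, *Clpp* and *Ddit3* were within it in all 3 comparisons. *Trap1*, *Lonp1* and *Clpx* were within it in 0 of the 3, so a change of that size lies inside their intervals. Leaving out the array labelled IF1-KO replicate 1, differences between IF1-KO and CRL ranged from -0.32 (*Clpx*) to 0.36 (*Trap1*), and 0 of the 10 passed the thresholds. For IF1-TG against IF1-KO they then ranged from -0.29 (*Trap1*) to 0.17 (*Lonp1*), again with 0 past the thresholds.

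Partners of 1 machine or pathway were compared across mice in 4 pairs, with exact two-sided permutation tests over all pairings and Benjamini-Hochberg adjustment over the 4. *Hspd1* and *Hspe1*, which share the promoter segment printed above, had a Pearson *r* of 0.10 over 8 arrays (exact *P* = 0.798, adjusted *P* = 0.920) and a Spearman rho of 0.31 (exact *P* = 0.462, adjusted *P* = 0.616). With normexp correction and quantile normalization their *r* was 0.79 (exact *P* = 0.011), so this value depends on the scaling. *Clpp* and *Clpx* had an *r* of 0.04 over 9 arrays (exact *P* = 0.920, adjusted *P* = 0.920) and a rho of 0.12 (exact *P* = 0.776, adjusted *P* = 0.776). *Hspd1* and *Hspa9* had an *r* of -0.32 over 8 arrays (exact *P* = 0.421, adjusted *P* = 0.842) and a rho of -0.31 (exact *P* = 0.462, adjusted *P* = 0.616).

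*Atf4* and *Ddit3* had the highest *r* of the 4 pairs on this scale, 0.78 over 8 arrays (exact *P* = 0.011, adjusted *P* = 0.0439). With normexp correction and quantile normalization it was 0.24 (exact *P* = 0.585), below that of *Hspd1* with *Hspe1*, so this value too depends on the scaling. Their rho was 0.69 (exact *P* = 0.0694, adjusted *P* = 0.278), which did not pass. After adjustment *r* no longer passed when IF1-KO replicate 1 or 3, CRL replicate 2 or any 1 IF1-TG mouse was left out. Without the 2 mice farthest from the *Atf4* median, CRL replicate 2 and the array labelled IF1-KO replicate 1, *r* was 0.58. It was 1.00 over 3 arrays of slide 2 and -0.13 over 3 arrays of slide 3, which are too few for a test. With genotype means removed *r* was 0.56, and with slide means removed it was 0.75, both given with no test. In the other 3 pairs, *r* without the 2 farthest mice was 0.52 for *Hspd1* with *Hspe1*, 0.40 for *Clpp* with *Clpx* and 0.22 for *Hspd1* with *Hspa9*. Within slides 2 and 3 it was 0.18 and 0.71, -0.34 and 0.16, and 0.33 and -0.96 in the same order.

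**Figure D4:**
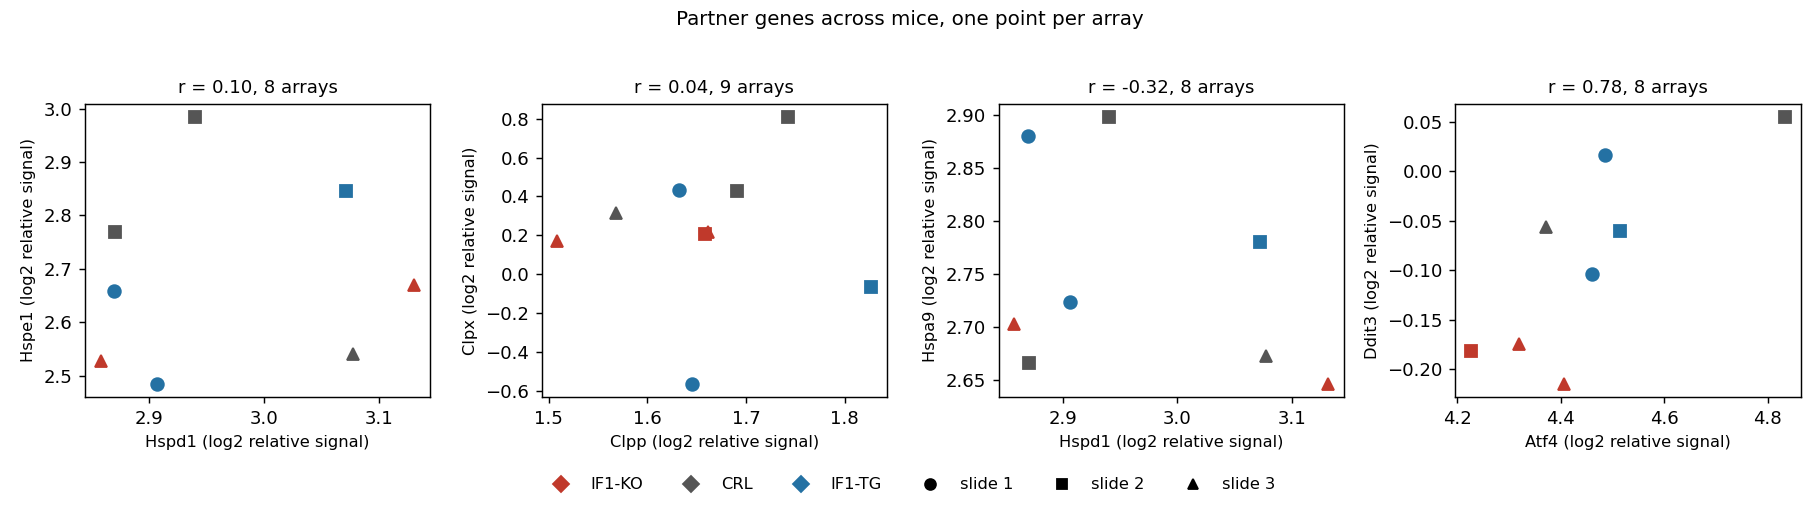
Log2 signal of 4 pairs of partner genes over the array's 75th percentile (both axes), 1 point per array, with colours for genotype and shapes for slide. *Atf4* and *Ddit3* (*r* = 0.78) are highest together in CRL replicate 2, and the 3 IF1-KO mice are lowest for *Ddit3* while for *Atf4* IF1-KO replicate 2 lies above CRL replicate 3, and the other pairs show no common order, with *r* from -0.32 to 0.10.

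The wider pathways were described with 7 lists holding 126 further genes, of which 124 were measured. By brightest probe, 2 of these were called in IF1-TG against IF1-KO and 3 in IF1-TG against CRL. In IF1-KO against CRL 0 were called by this rule in limma, and 2 had an unadjusted *P* value below 0.05, beside 2.58% of all genes. These were *Hspa5* and *Sdf2l1*, both lower in IF1-KO and named after their values were seen. The shares called in the first 2 comparisons were 1.61% and 2.42%, beside 3.67% and 4.3% of all genes, and the third stands beside 1.02%. This order turned with slide as a fixed block, where they were 5.65% and 9.68% beside 4.77% and 7.3% of all genes, and with normexp, where both were 3.23% beside 2.04% and 2.01%. It also turned for the first when IF1-TG replicate 2 was dropped (7.26% beside 5.93%) and for the second when CRL replicate 3 was (5.65% beside 4.48%). None passed after adjustment. The shares with slide as a fixed block rest, for the IF1-TG mice, on IF1-TG replicate 3 alone.

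Among the 12 mitochondrial chaperones and co-chaperones, the 4 described above included, 0 were called in any comparison, and the list's median difference was -0.03, 0.00 and 0.01 for IF1-TG versus IF1-KO, IF1-TG versus CRL and IF1-KO versus CRL. Over all genes these medians were 0.01, 0.00 and -0.01.

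Among the 19 mitochondrial proteases and prohibitins, *Clpx* and *Phb* were called lower in IF1-TG than in CRL mice, and *Phb* also lower than in IF1-KO mice. *Phb* encodes prohibitin, a scaffold of the inner membrane. Its signal was 2.14, 2.57 and 2.51 in the IF1-KO, 2.57, 2.22 and 2.42 in the CRL, and 1.34, 1.42 and 2.20 in the IF1-TG mice. The mice with low signal were IF1-TG replicates 1 and 2, which are the 2 arrays of slide 1. The difference was -0.75 against both CRL (unadjusted *P* = 0.0131, adjusted *P* = 0.506) and IF1-KO mice (unadjusted *P* = 0.0129, adjusted *P* = 0.660 in limma). With IF1-KO replicates 2 and 3 alone, the difference from IF1-KO was -0.88 (unadjusted *P* = 0.0111). With slide as a fixed block the differences were -0.13 and -0.06, but these rest on IF1-TG replicate 3 alone (2.20). A second *Phb* probe gave 0.06 against CRL and -0.25 against IF1-KO mice (unadjusted *P* = 0.837 and 0.378), so the probes differed in direction for CRL alone. The mean of both probes gave -0.35 (unadjusted *P* = 0.0224) and -0.50 (unadjusted *P* = 0.00346), both under 1.5-fold.

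Of the 22 genes of mitochondrial protein import, 0 were called in any comparison, with medians of 0.08, 0.05 and -0.01 in the order above. *Tomm40*, the channel of the outer membrane, had the smallest *P* value of the lists and is named after its values were seen. Its signal was 2.53, 2.56 and 2.68 in the IF1-TG mice, above all others, which ran from 1.91 to 2.37. It was higher in IF1-TG than in CRL mice by 0.57 (standard error 0.12, unadjusted *P* = 0.00157, adjusted *P* = 0.373 in limma), just under 1.5-fold.

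Of 16 integrated stress response kinases and eIF2 factors, 0 were called and 0 had an unadjusted *P* value below 0.05 in limma in any comparison. Of 28 measured ATF4 and CHOP partners and targets, 1 was called, *Ero1a*, an oxidase of the endoplasmic reticulum and a target of CHOP. Its signal was -1.31, -1.18 and -1.33 in the CRL mice and -1.98, -1.50 and -2.61 in the IF1-TG mice, with no overlap, and -2.04, -1.34 and -1.61 in the IF1-KO mice. It was lower in IF1-TG than in CRL mice by a log2 difference of -0.75 (standard error 0.28, unadjusted *P* = 0.0261, adjusted *P* = 0.548 in limma). It was -0.46 (unadjusted *P* = 0.0836) when IF1-TG replicate 3 was dropped. With slide as a fixed block it was -1.26, a value that rests on IF1-TG replicate 3 alone, the lowest array (-2.61). It missed the *P* threshold at -0.77 and -0.70 when CRL replicate 1 or 2 was dropped. The difference between IF1-KO and CRL was -0.39 (unadjusted *P* = 0.199), or -0.20 with IF1-KO replicates 2 and 3 alone. That between IF1-TG and IF1-KO was -0.36 (unadjusted *P* = 0.229), and was called when IF1-TG replicate 2 was dropped (-0.63, unadjusted *P* = 0.0392). With slide as a fixed block it was -0.79, again on IF1-TG replicate 3 alone.

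Of 19 genes for chaperones of the endoplasmic reticulum and the unfolded protein response, 0 were called, and the medians were 0.03, -0.16 and -0.16. At an unadjusted *P* value below 0.05 in limma, 2 were lower in IF1-TG than in CRL mice and 2 lower in IF1-KO than in CRL mice. These counts stand beside 8.11% and 2.58% of all genes. Both comparisons with a median of -0.16 share the CRL mice. Of 16 measured cytosolic heat shock genes, *Hsp90aa1* was higher in IF1-TG than in CRL mice by 0.68 (standard error 0.25, unadjusted *P* = 0.0261, adjusted *P* = 0.548 in limma). It encodes the stress-inducible form of cytosolic Hsp90. Its signal was 4.09, 4.64 and 5.15 in the CRL mice and 5.48, 5.07 and 5.37 in the IF1-TG mice, which overlapped, and 5.37, 5.12 and 5.07 in the IF1-KO mice. The difference between IF1-KO and CRL was 0.56 (unadjusted *P* = 0.0562, or 0.47 with IF1-KO replicates 2 and 3 alone) and that between IF1-TG and IF1-KO 0.12 (unadjusted *P* = 0.644 in limma). The former was called with normexp (0.70, unadjusted *P* = 0.0309) and when CRL replicate 3 was dropped (0.82, unadjusted *P* = 0.00541), and was 0.29 when CRL replicate 1 was. The call between IF1-TG and CRL mice was lost under 7 of 20 alternative settings. It was 0.41 (unadjusted *P* = 0.0833) when CRL replicate 1 was dropped, while the other 6 left it between 0.59 and 0.83 with unadjusted *P* values from 0.0501 to 0.0771. The 0.83 came with slide as a fixed block and rests on IF1-TG replicate 3 alone. *Dnajb4*, a cytosolic co-chaperone of Hsp70, was lower in IF1-TG mice, with a log2 difference from IF1-KO of -0.63 (unadjusted *P* = 0.0345, adjusted *P* = 0.687 in limma). Its signal was -1.94, -1.44 and -1.95 in the IF1-KO mice and -2.29, -2.12 and -2.80 in the IF1-TG mice, without overlap. This call was lost when IF1-KO replicate 2 (-0.46) or IF1-TG replicate 3 (-0.43) was dropped and with a replicate block (-0.63, unadjusted *P* = 0.0572). With slide as a fixed block the *Dnajb4* difference between IF1-TG and CRL mice was -0.63, on IF1-TG replicate 3 alone. With IF1-KO replicates 2 and 3 alone the difference from IF1-KO was -0.71 (unadjusted *P* = 0.0419).

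**Figure D5:**
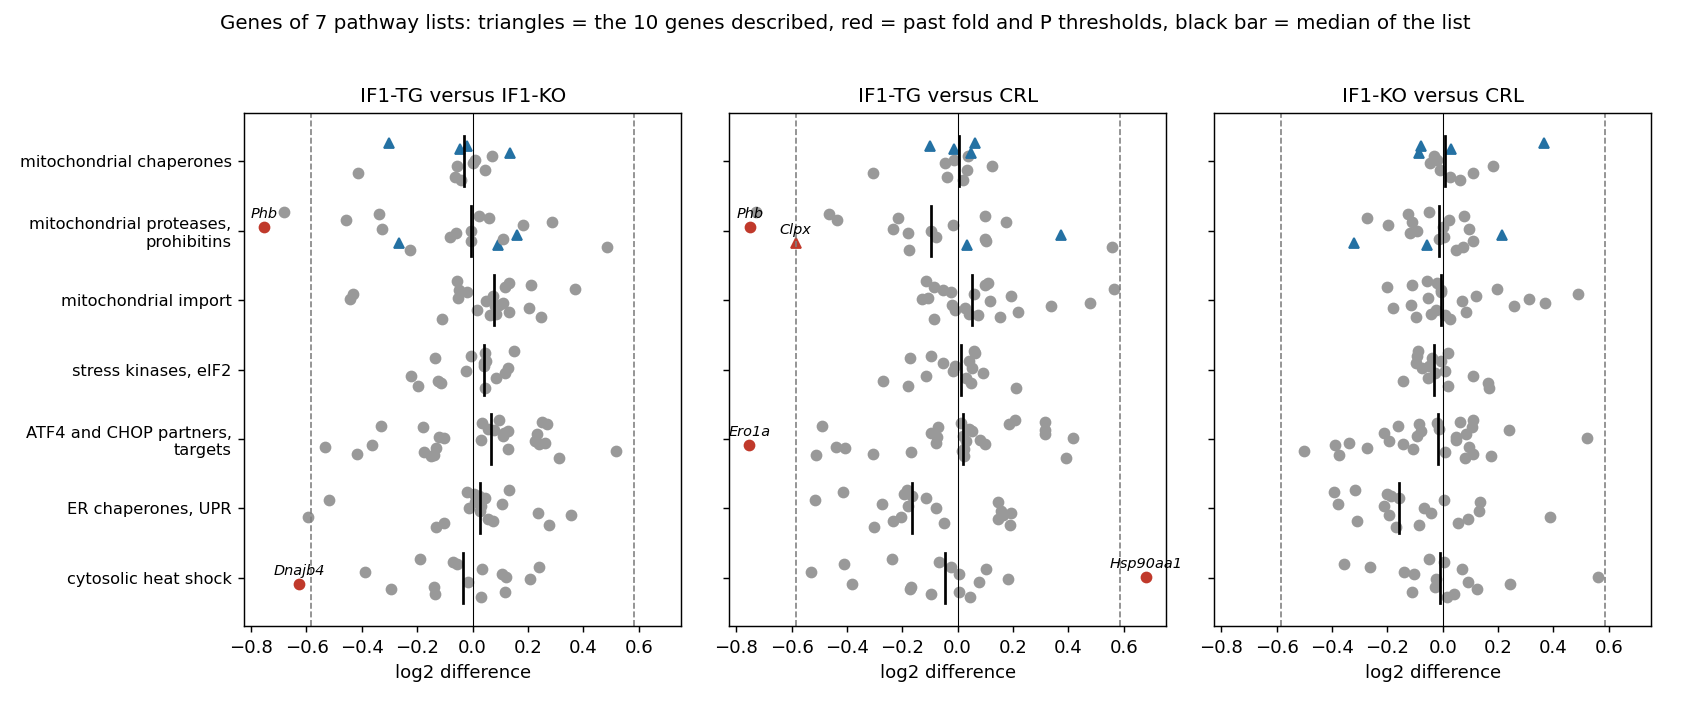
Log2 differences (horizontal axis) of the genes in 7 pathway lists for the 3 comparisons, 1 point per gene by its brightest probe, with triangles for the genes described above, red for genes past the fold and *P* thresholds, black bars for list medians and dashed lines at 1.5-fold. The medians lie between -0.16 and 0.08, and the red points are *Phb*, *Dnajb4*, *Clpx*, *Ero1a* and *Hsp90aa1*. The grey points beyond the dashed lines did not reach an unadjusted *P* value below 0.05.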

How the data were processed

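RNA of 9 hippocampi was hybridized to 1 array each on 3 slides. Per the file headers, the authors deposited processed spot intensity from Feature Extraction 10.7.3.1, with background subtracted and spatial trends removed within arrays but no normalization between arrays. Mean and local background intensity were deposited uncorrected. The deposited marks (well above background, outlier, saturated) were used as given, and no spot was saturated. Probe positions are the deposited ones on mm9.

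The log2 processed intensity was set relative to the 75th percentile of each array. Control and outlier spots were left out, and probes were kept if some genotype had them well above background on its 3 arrays (27971 of 39429). All 9 arrays entered 1 limma 3.58.1 fit (lmFit, eBayes, R 4.3.3) with genotype, after tests on simulated data. Each gene is given by the probe of highest mean signal, with every one of the 10 genes named, and list genes when past the thresholds. *Tomm40*, *Hspa5* and *Sdf2l1* were named after their values were seen. The genes and lists were chosen with earlier results of these data known. The alternatives were normexp correction (offset 50) with quantile normalization, quantile normalization alone, 2 other filters, slide as a fixed or random block, a replicate block, fits of 2 genotypes, trend and robust options, a gene's mean or any probe, each array left out and, chosen after seeing the data, outlier spots kept. Slide 1 held only IF1-TG replicates 1 and 2, and slide 3 no IF1-TG array. With slide as a fixed block, IF1-TG differences therefore rest on IF1-TG replicate 3 alone. Nothing states whether the mice share litters. The number of arrays limits the precision.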

Additional observations from a re-analysis of the deposited data

How the results depend on the processing

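The replicate numbers do not pair the mice, since the deviations of same-numbered arrays correlated between -0.17 and 0.12, with 1 of 9 pairs over 0.1. With a replicate block, 0 of the 10 genes were called in any comparison and 1 further pathway gene between IF1-TG and IF1-KO mice. The *Clpx* call between IF1-TG and CRL mice gave a count of 0 under normexp with quantile normalization, quantile normalization, slide as a fixed block and the fit of 2 genotypes, and 0 to 1 with an array left out. Counting any probe of a gene gave 2 between IF1-TG and CRL and 1 between IF1-KO and CRL, through the dim *Hspe1* probe (5.59% and 1.34% of all genes). The *F* test gave 0 to 1 with an array left out, with *Clpx* the 1 without IF1-TG replicate 2. Without CRL replicate 3, *Atf4* keeps CRL replicate 2 as its only CRL array, so its *F* test is not read there.

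Further pathway genes called between IF1-TG and IF1-KO numbered 4 with normexp, 7 with slide as a fixed block, 1 with the mean of a gene's probes and 2 to 9 with an array left out (9 without IF1-TG replicate 2). Between IF1-TG and CRL they numbered 12 with slide as a fixed block, 5 with any probe and 1 to 7 with an array left out (1 without CRL replicate 1, 7 without CRL replicate 3). Between IF1-KO and CRL they numbered 1 with normexp or no filter, 2 with any probe and 0 to 1 with an array left out. Of all genes, slide as a fixed block called 4.77%, 7.3% and 0.842% in the 3 comparisons, normexp 2.04%, 2.01% and 0.595%, and no filter 8.09%, 11.8% and 1.85%. With an array left out, the share ranged from 2.2% (without IF1-KO replicate 2) to 5.93% (without IF1-TG replicate 2, with 5.81% without IF1-TG replicate 3) in the first, from 3.42% (without CRL replicate 1) to 6.64% (without IF1-TG replicate 2) in the second, and from 0.64% (without CRL replicate 1) to 3.56% (without CRL replicate 3, with 1.6% without IF1-KO replicate 1) in the last. The cause was not tested. The counts and shares with slide as a fixed block rest, for the IF1-TG mice, on IF1-TG replicate 3 alone.

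Of 600 recomputed differences of the 10 genes, 550 kept direction and side of the thresholds, 12 (all *Clpx*, IF1-TG versus CRL) lost the call and 38 changed sign, none of them a called value. With normexp, IF1-TG versus IF1-KO became -0.0073 for *Lonp1* and -0.0095 for *Atf5*, IF1-TG versus CRL became -0.13 for *Hspa9* and 0.0088 for *Ddit3*, and IF1-KO versus CRL became -0.046 for *Hspd1*. With slide as a fixed block, *Hspd1* became 0.25, 0.17 and -0.083 in that order of comparisons, *Trap1* 0.30 in the first and *Hspe1* 0.019 in the last. Of these, the IF1-TG differences rest on IF1-TG replicate 3 alone. With outlier spots kept, *Hspd1* became 0.12 in the first and -0.14 in the last. With the mean of a gene's probes, *Hspe1* became 0.18 and 0.24 in the second and last, and *Atf4* 0.13 and 0.051. With an array left out, IF1-TG versus IF1-KO ranged from -0.087 to 0.14 for *Atf5*, -0.18 to 0.091 for *Hspd1*, -0.50 to 0.014 for *Trap1* and -0.11 to 0.067 for *Hspe1*. IF1-TG versus CRL ranged from -0.074 to 0.044 for *Hspd1*, -0.21 to 0.0079 for *Hspe1*, -0.14 to 0.38 for *Trap1*, -0.035 to 0.68 for *Lonp1*, -0.35 to 0.12 for *Atf4* and -0.029 to 0.072 for *Clpp*. IF1-KO versus CRL ranged from -0.10 to 0.17 for *Hspd1*, -0.19 to 0.029 for *Hspe1*, -0.0089 to 0.33 for *Atf5* and -0.20 to 0.52 for *Lonp1*.

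For *Hspd1* with *Hspe1*, *r* was 0.79 with normexp, -0.22 with outlier spots kept and -0.049 to 0.28 with an array left out. For *Clpp* with *Clpx* it was -0.23 with normexp, -0.054 with quantile normalization, -0.20 with slide means removed and -0.21 to 0.33 with an array left out. For *Hspd1* with *Hspa9* it was 0.63 with normexp and 0.16 with outlier spots kept. For *Atf4* with *Ddit3* it was 0.24 with normexp, 0.74 with quantile normalization, 0.74 with outlier spots kept, 0.75 with slide means removed, 0.56 with genotype means removed and 0.64 to 0.86 with an array left out.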
